A study of Homo sapiens with 14 samples.

Results

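The miR-200 family is a set of 5 related microRNAs (miRNAs), the mature strands hsa-miR-200a-3p, hsa-miR-200b-3p, hsa-miR-429, hsa-miR-200c-3p and hsa-miR-141-3p, and it was followed here through all 14 small RNA libraries. The 5 members were found by name in the deposited count table, which held 2848 entries, 2346 of them with a human miRNA name. The cells were PANC-1, an established human line from a pancreatic ductal carcinoma, cultured in serum-containing medium. They received grape proanthocyanidins (PA), which are chains of flavan-3-ol units, at 20 µg/ml, or the vehicle DMSO. The groups were PA at 3, 12 and 24 h and DMSO at 0, 3, 12 and 24 h, each with 2 libraries lettered A and B. All groups thus shared the cell line and the medium, and there was no PA group at 0 h. The design asked how miRNA levels changed with PA over time.

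Members of the miR-200 family keep epithelial cells epithelial. They bind the messenger RNAs of ZEB1 and ZEB2, which are transcription factors that silence E-cadherin and drive the epithelial-mesenchymal transition (EMT). ZEB factors in turn repress the promoters of both miR-200 clusters, so epithelial cells usually hold much of the family and mesenchymal cells little. PANC-1 is commonly described as having mesenchymal features. The tables hold miRNA entries and no messenger RNA, so the levels of ZEB1, ZEB2 and E-cadherin were not analysed here.

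The mature sequences are shown because the family splits into groups by its seed, the bases 2 to 8 from the 5′ end with which a miRNA finds its targets. They come from RefSeq (GRCh38.p14), where 5 of 5 members matched, and the seed is in capitals:
miR-200b-3p: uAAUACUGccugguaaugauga
miR-200c-3p: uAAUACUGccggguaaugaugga
miR-429: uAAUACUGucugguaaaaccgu
miR-200a-3p: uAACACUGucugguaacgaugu
miR-141-3p: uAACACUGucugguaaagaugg
The seed AAUACUG is shared by miR-200b-3p, miR-200c-3p and miR-429, and the seed AACACUG by miR-200a-3p and miR-141-3p. No other mature human miRNA of the RefSeq table carried either seed. The seeds differ by C4U, with miR-200a-3p as the starting sequence and positions counted from 1 at the 5′ end.

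The seed groups cut across the genome's arrangement. On chromosome 1, plus strand, the hairpin of miR-200b lies at chr1:1167104-1167198, that of miR-200a at chr1:1167863-1167952 and that of miR-429 at chr1:1169005-1169087. These hairpins span 1984 bases, inside the RefSeq host gene MIR200BHG. On chromosome 12, plus strand, the hairpins of miR-200c (chr12:6963699-6963766) and miR-141 (chr12:6964097-6964191) are 330 bases apart. Both lie in an intron of the non-coding gene MIR200CHG in the GENCODE annotation. Coordinates are those of GRCh38.

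Near-identical members come from different chromosomes, which bears on their counts. Over the first 22 positions miR-200a-3p and miR-141-3p differ only by C17A and U22G, and miR-200b-3p and miR-200c-3p only by U11G and A22G. How the authors counted a read with several matches was not given in the sources used, so the split of counts within these pairs is uncertain. A sum over a seed group would not change with that split, provided that no such read was dropped or counted for both members, which is not known.

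The libraries held 1032391 to 3111014 counts each (median 2076388). In the fit of all libraries, DMSO at 12 h stood furthest from DMSO at 0 h. There 12.7% of 810 entries tested differed, against 0% for DMSO at 3 h and 3.58% for DMSO at 24 h (edgeR, adjusted p under 0.05). In fits of the compared groups alone this order did not hold, and 12 h called the fewest entries and 24 h the most. Low counts were more often even than odd, 62.4% of all counts under 20 and 42 of the 69 member counts above 0, against 49.2% of counts of 1000 and over. Intervals that take each count as a molecule may thus be too narrow. Of epithelial markers outside the family, miR-203a had 2 to 13 counts and miR-205-5p had 0 to 2 counts, with 0 in 12 of 14 libraries. Summed markers of other cell types lay, in CPM (counts scaled to a common library size by the library total and a TMM factor), at 0.433 to 5.04 for acinar cells, 67.3 to 187 for islets and 1.64 to 6.37 for blood-forming cells. The islet sum was mostly miR-7-5p (63.1 to 181 CPM), with miR-375 at 1.64 to 8.35 CPM. For endothelium the only marker was miR-126-3p, at 386 to 735 CPM. Sums lay at 296 to 591 CPM for red cells and 0 to 7.43 for muscle, liver and neurons. The red cell sum was almost all miR-486-5p (296 to 591 CPM), with miR-451a at 0 to 2.29 and miR-144-3p at 0 to 3.72 CPM. For the 5 markers of fibroblasts and smooth muscle, sums lay at 27.7 to 56.0 CPM in the 6 PA libraries, against 13.1 to 306 CPM in the 8 DMSO libraries. DMSO 0 h B (306 CPM), DMSO 24 h A (182) and DMSO 3 h A (139) stood apart from the rest, and miR-145-5p was at 0 in 4 DMSO libraries. The sums are levels of marker miRNAs in bulk RNA of a cell line, and the presence of other cells was not tested. In bulk RNA, fewer cells of a type and less RNA per cell cannot be told apart.

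The whole family was present in PANC-1, at a low level. The 5 members together took 2023 counts over the 14 libraries, and their summed level averaged 69.8 CPM with a range of 50.02 to 85.8 CPM. miR-21-5p, the most abundant miRNA of the cells, averaged 186226 CPM, 2667 times the family's sum. By mean level among the 2346 named miRNAs, miR-200a-3p ranked 331, miR-200b-3p 382, miR-429 453, miR-141-3p 458 and miR-200c-3p 485. All 5 passed the filter on low counts, which 810 of 2848 entries did.

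The order of levels was read over the 14 libraries, since the members have 22 or 23 bases and need no correction for length. Mean levels were 24.7 ± 7.13 CPM for hsa-miR-200a-3p, 17.1 ± 3.84 CPM for hsa-miR-200b-3p, 10.4 ± 4.37 CPM for hsa-miR-429, 9.73 ± 4.88 CPM for hsa-miR-141-3p and 7.82 ± 3.23 CPM for hsa-miR-200c-3p (SD, n = 14). miR-200a-3p exceeded miR-200b-3p in 12 of 14 libraries, by a mean of 0.48 ± 0.57 on the log2(CPM + 1) scale (SD over libraries), and miR-200b-3p exceeded miR-429 in 12 of 14, by 0.74 ± 0.65. Among the 3 lowest members, neighbours differed by far less than their spread. miR-429 was above miR-141-3p in 6 of 14 libraries (0.23 ± 1.07), and miR-141-3p above miR-200c-3p in 8 of 14 (0.14 ± 1.29). These differences are a description, since the same levels set the order. They may also depend on how reads that match near-identical members were counted.

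**Figure D1:**
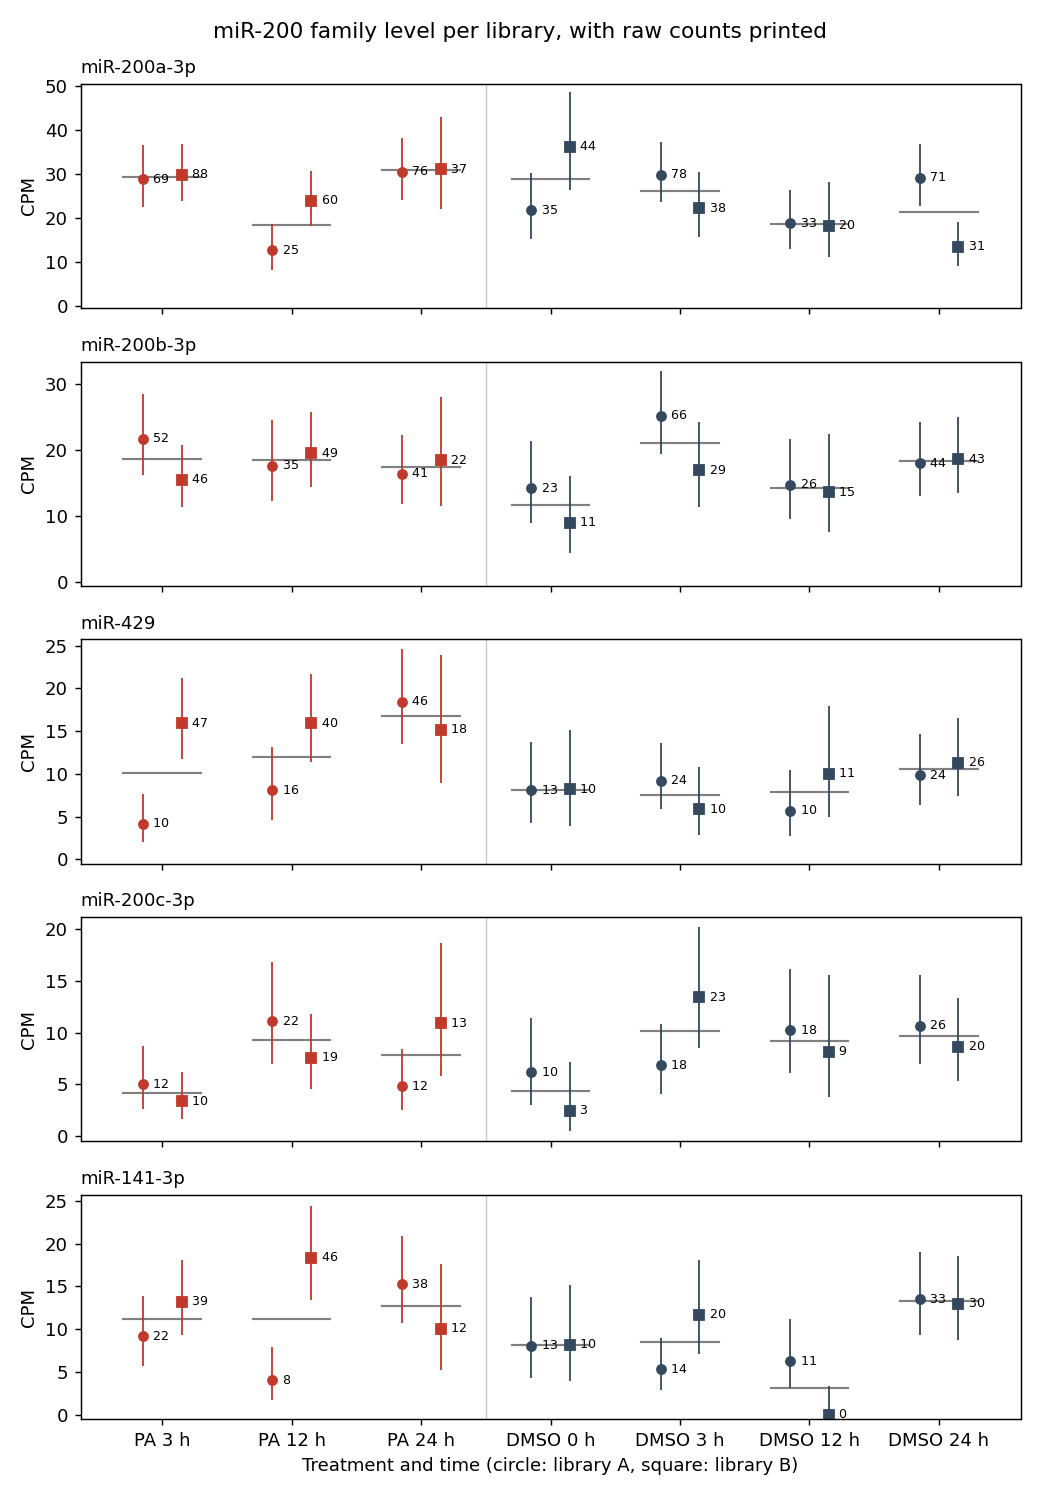
CPM of each member in each library, with the raw count beside each point; lines through points are exact 95% Poisson intervals, which cover counting error only, and grey bars are group means. Counts run from 0 for miR-141-3p in DMSO 12 h B to 88 for miR-200a-3p in PA 3 h B.

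As counted, the chromosome 1 cluster held most of the family. It took 74.7% of all family counts, and 64.2% to 84% of them in single libraries. Each near-identical pair has a member on either chromosome, so this share may depend on how reads that match both were counted. The seed groups were nearly even: AAUACUG took 50.5% of all family counts and AACACUG 49.5%. Single libraries spread widely around this, with the AAUACUG share at 68.9% in PA 12 h A (73 of 106 counts, exact 95% binomial interval 59.1% to 77.5%) and 30.8% in DMSO 0 h B. Over the 6 libraries of PA at 3, 12 and 24 h, the summed level of AACACUG ran from 16.6 to 45.7 CPM with a median of 41.7, against 18.2 to 42.6 CPM with a median of 30.2 over the 6 DMSO libraries of these times. For AAUACUG it ran from 30.9 to 44.6 CPM (median 38.2) with PA and from 30.7 to 41.2 CPM (median 37.4) with DMSO. The ranges of PA and DMSO overlapped for both seeds.

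The summed family level overlapped between PA and DMSO as well. In raw counts the sum lay between 102 and 230 in the 6 PA libraries, and between 55 and 200 in the 6 DMSO libraries of the same times. Scaled to depth, PA libraries A and B had 68.9 and 77.9 CPM (3 h), 53.4 and 85.2 CPM (12 h) and 85.4 and 85.8 CPM (24 h). DMSO libraries A and B had 58.2 and 64.1 CPM (0 h), 76.4 and 70.2 CPM (3 h), 55.7 and 50.02 CPM (12 h) and 81.2 and 65.0 CPM (24 h). The 6 PA libraries thus had 53.4 to 85.8 CPM with a median of 81.5, and the 6 DMSO libraries of 3, 12 and 24 h had 50.02 to 81.2 CPM with a median of 67.6. The highest single library was PA 24 h B and the lowest DMSO 12 h B, which also had the smallest total count.

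**Figure D2:**
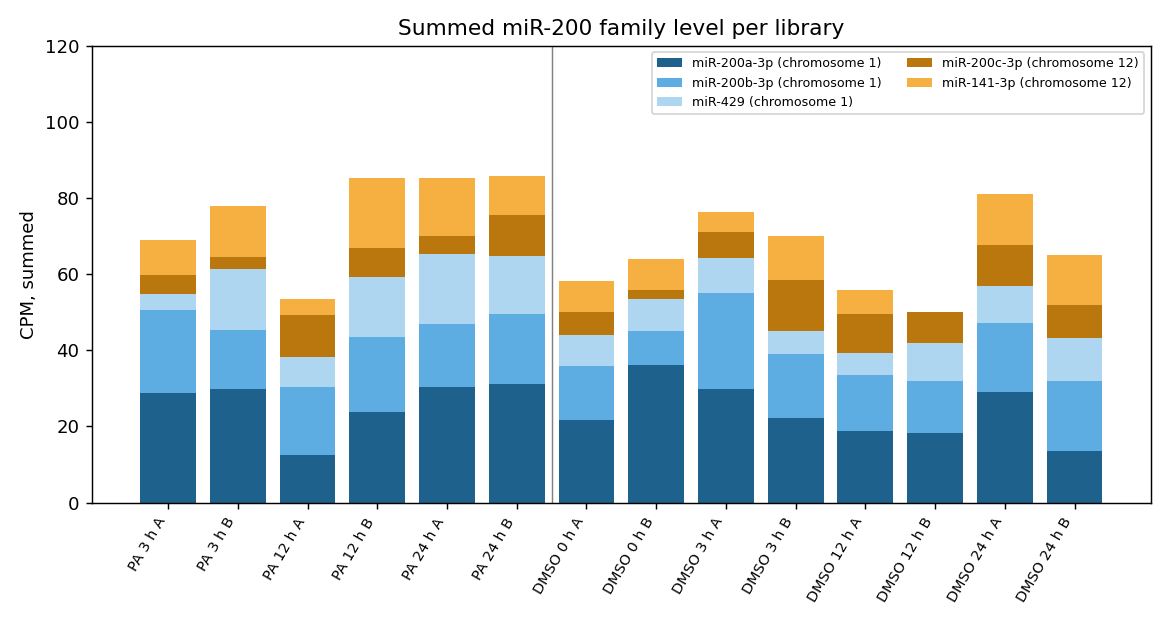
Summed CPM of the 5 members in each library, stacked by member, with chromosome 1 members in blue and chromosome 12 members in orange. The sum lies between 50.02 and 85.8 CPM in all 14 libraries, and the blue members make up most of every bar.

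No member passed the test against DMSO at any time. In edgeR's quasi-likelihood test with Benjamini-Hochberg adjustment over all entries, 0 of 5 members passed at 3 h, where 0.247% of all entries did, 0 of 5 at 12 h (11.1% of all entries) and 0 of 5 at 24 h (6.67%). DESeq2 also called 0 of 5 at each time. At an unadjusted p under 0.05, 1 member stood out at 3 h (miR-200c-3p), against 14 of 810 entries. At 12 and 24 h 0 members did, against 213 and 169 of 810 entries. The members' median log2 fold change was 0.16 at 3 h, 0.38 at 12 h and -0.03 at 24 h, beside -0.01, -0.06 and -0.01 over all entries. PA and DMSO libraries did not overlap for 1 of 5 members at 3 h, 1 of 5 at 12 h and 2 of 5 at 24 h, when this held for 32.3%, 52.1% and 52.1% of all entries. Of the 15 intervals for 5 members at 3 times, 11 included a 2-fold change in 1 direction or the other.

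miR-200c-3p, the chromosome 12 member best known for repressing ZEB1, was scarcest with PA at 3 h and with DMSO at 0 h, at 4.20 ± 1.15 and 4.33 ± 2.64 CPM (SD, n = 2 each). With PA its counts in libraries A and B were 12 and 10 (3 h), 22 and 19 (12 h) and 12 and 13 (24 h). With DMSO they were 18 and 23 (3 h), 18 and 9 (12 h) and 26 and 20 (24 h). At 3 h both PA libraries (5.01 and 3.39 CPM) lay under both DMSO libraries (6.87 and 13.4 CPM). The log2 fold change was -1.24 ± 0.55 (SE; 95% interval -2.41 to -0.08; unadjusted p = 0.0375, edgeR adjusted p = 1). At 12 h the groups averaged 9.33 ± 2.49 CPM with PA and 9.21 ± 1.45 with DMSO, and at 24 h 7.87 ± 4.33 with PA and 9.66 ± 1.41 with DMSO (SD, n = 2 each). These groups overlapped, with log2 fold changes of -0.0094 (-1.14 to 1.12) and -0.39 (-1.54 to 0.75). The value at 3 h was -0.70 without DMSO 3 h B, the DMSO library with the highest level, and -1.68 without DMSO 3 h A.

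miR-141-3p is the partner of miR-200c on chromosome 12 but carries the seed of miR-200a. Relative to its mean it had the widest spread of the family. With PA its counts in libraries A and B were 22 and 39 (3 h), 8 and 46 (12 h) and 38 and 12 (24 h). With DMSO they were 14 and 20 (3 h), 11 and 0 (12 h) and 33 and 30 (24 h). The count of 0, in DMSO 12 h B, has an exact 95% Poisson upper limit of 3.69 counts, or 3.35 CPM. A floor of 3 counts in that library lies at 2.73 CPM. PA and DMSO overlapped at every time. At 12 h the levels were 4.03 and 18.3 CPM with PA and 6.26 and 0 CPM with DMSO, a log2 fold change of 1.63 ± 0.81 (95% interval -0.08 to 3.35; edgeR adjusted p = 0.215). That value rested on single libraries: it was 0.22 without PA 12 h B and 0.88 without DMSO 12 h B. Without DMSO 12 h A it passed (adjusted p = 0.0238), but the DMSO group then held only the library at 0, and the fitted change has no meaning as a size. Set against DMSO at the other times, the log2 fold change at 12 h was 0.25. At 3 h it was 0.45 (-0.996 to 1.89), and at 24 h -0.03 (-1.43 to 1.37).

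miR-429, the chromosome 1 member with the AAUACUG seed and a 3′ end unlike the rest, had log2 fold changes above 0 at all 3 times of PA, none of which passed. With PA its counts in libraries A and B were 10 and 47 (3 h), 16 and 40 (12 h) and 46 and 18 (24 h). With DMSO they were 24 and 10 (3 h), 10 and 11 (12 h) and 24 and 26 (24 h). Both PA libraries lay above both DMSO libraries at 24 h, and the groups overlapped at 3 and 12 h. At 24 h the levels were 18.4 and 15.1 CPM with PA and 9.84 and 11.3 CPM with DMSO, a log2 fold change of 0.68 ± 0.52 (95% interval -0.42 to 1.78; edgeR adjusted p = 0.507). The log2 fold change was 0.42 (-0.73 to 1.56) at 3 h and 0.68 (-0.55 to 1.91) at 12 h. At 3 h it was -0.84 without PA 3 h B, so 1 library set its sign, and at 12 h it was 0.15 without PA 12 h B and 1.10 without PA 12 h A.

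miR-200a-3p, the most abundant member and a repressor of the ZEB factors through the AACACUG seed, also separated only at 24 h. With PA its counts in libraries A and B were 69 and 88 (3 h), 25 and 60 (12 h) and 76 and 37 (24 h). With DMSO they were 78 and 38 (3 h), 33 and 20 (12 h) and 71 and 31 (24 h). At 24 h the PA libraries had 30.5 and 31.1 CPM, against 29.1 and 13.4 CPM in DMSO, so DMSO 24 h A came close to them. The log2 fold change was 0.53 ± 0.38 (95% interval -0.29 to 1.34; edgeR adjusted p = 0.489). It was 0.10 without DMSO 24 h B and 1.21 without DMSO 24 h A. The 3 DMSO libraries with a high sum of fibroblast and smooth muscle markers also had the higher miR-200a-3p level of their pair, 36.2 against 21.7 CPM at 0 h, 29.8 against 22.2 at 3 h and 29.1 against 13.4 at 24 h. No other member kept this order at all of 0, 3 and 24 h. The library with the high sum was the lower of its pair for miR-200b-3p at 0 h (9.04 against 14.2 CPM) and 24 h. It was also lower for miR-200c-3p at 0 h (2.47 against 6.20 CPM) and 3 h (6.87 against 13.4 CPM). The same held for miR-141-3p at 3 h (5.35 against 11.7 CPM) and miR-429 at 24 h (9.84 against 11.3 CPM). In the remaining pairs it was higher. The part of the fibroblast and smooth muscle markers in the miR-200a-3p result was not tested. At 3 h the log2 fold change was 0.16 (-0.63 to 0.95) and at 12 h -0.0042 (-0.89 to 0.88), and the groups overlapped at both times.

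miR-200b-3p, the first hairpin of the chromosome 1 cluster and a repressor of ZEB1 and ZEB2, was the steadiest member. With PA its counts in libraries A and B were 52 and 46 (3 h), 35 and 49 (12 h) and 41 and 22 (24 h). With DMSO they were 66 and 29 (3 h), 26 and 15 (12 h) and 44 and 43 (24 h). At 12 h both PA libraries (17.6 and 19.5 CPM) lay above both DMSO libraries (14.8 and 13.6 CPM), and the groups overlapped at 3 and 24 h. The log2 fold change at 12 h was 0.38 ± 0.35 (95% interval -0.36 to 1.12; edgeR adjusted p = 0.523). It was -0.20 (-0.88 to 0.48) at 3 h and -0.08 (-0.79 to 0.63) at 24 h. Its intervals were the narrowest of the 5 members at each time.

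**Figure D3:**
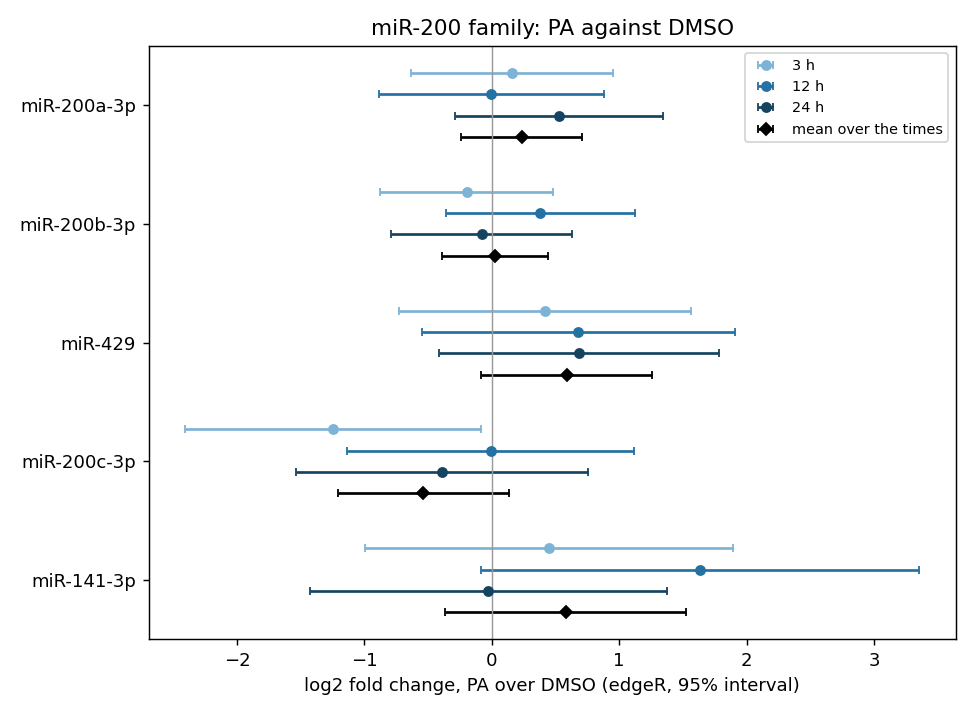
Log2 fold change of PA over DMSO for each member at 3, 12 and 24 h and averaged over the times, with 95% intervals from the edgeR fit. Every interval but that of miR-200c-3p at 3 h (-2.41 to -0.08) includes 0, and that of miR-141-3p at 12 h is the widest.

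Averaged over 3, 12 and 24 h with time as a factor, 0 of 5 members passed, and 0% of the 808 entries tested did (118 entries and 0 members at an unadjusted p under 0.05; DESeq2 called 13 entries and 0 members). miR-429 had 4.18 to 18.4 CPM (median 15.5) over the 6 PA libraries, against 5.69 to 11.3 CPM (median 9.50) over the 6 DMSO libraries. Its mean log2 fold change was 0.59 ± 0.32 (95% interval -0.08 to 1.26; unadjusted p = 0.0821, edgeR adjusted p = 0.426). miR-200c-3p lay on the other side, with 3.39 to 11.1 CPM (median 6.29) with PA and 6.87 to 13.4 CPM (median 9.45) with DMSO. Its mean log2 fold change was -0.54 ± 0.32 (-1.21 to 0.13; adjusted p = 0.477). For the others it was 0.58 (-0.36 to 1.53) for miR-141-3p, 0.23 (-0.24 to 0.71) for miR-200a-3p and 0.03 (-0.39 to 0.44) for miR-200b-3p. Single libraries moved these values: without 1 library they ran from 0.39 to 0.80 for miR-429, -0.67 to -0.32 for miR-200c-3p, 0.21 to 0.77 for miR-141-3p and 0.10 to 0.38 for miR-200a-3p. The lowest of these came without PA 3 h B for miR-429, PA 12 h B for miR-141-3p and DMSO 24 h B for miR-200a-3p, and the one nearest 0 for miR-200c-3p without DMSO 3 h B. The values of the 3 members with the AAUACUG seed thus spread from -0.54 to 0.59, and those of the chromosome 12 members had opposite signs.

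The PA effect of no member was shown to differ between the times. In the test of that difference 0 of 5 members passed, when 5.93% of all entries did (48 of 810). The smallest adjusted p was 0.527, for miR-200c-3p, and 0 members had an unadjusted p under 0.05.

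Time in vehicle changed no member past the threshold either. Against DMSO at 0 h, 0 of 5 members passed at 3 h (0% of all entries; 70 of 810 entries and 1 member at an unadjusted p under 0.05), 0 of 5 at 12 h (12.7%) and 0 of 5 at 24 h (3.58%). At 0 h the counts (A and B) were 35 and 44 for miR-200a-3p, 23 and 11 for miR-200b-3p, 13 and 10 for miR-429, 10 and 3 for miR-200c-3p, and 13 and 10 for miR-141-3p. miR-200b-3p averaged 21.1 ± 5.84 CPM at 3 h and 11.6 ± 3.68 at 0 h (SD, n = 2 each), or 0.85 ± 0.35 on the log2 scale (unadjusted p = 0.0299, edgeR adjusted p = 0.548), and it was 0.52 without DMSO 3 h A. miR-200c-3p lay above its 0 h level at all later vehicle times, with log2 fold changes of 1.13 at 3 h, 1.04 at 12 h and 1.10 at 24 h (adjusted p = 0.58, 0.305 and 0.358). Those values rest in part on the 3 counts of DMSO 0 h B, without which they were 0.70, 0.60 and 0.64. miR-141-3p had the largest value below 0, -1.14 at 12 h (adjusted p = 0.434), and it passed only without DMSO 12 h A (adjusted p = 0.049), when the library at 0 was left alone in its group.

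Within PA the later times were set against 3 h, which mixes time in culture with time of exposure. At 12 h 0 of 5 members passed (0% of all entries; 82 of 810 entries and 0 members at an unadjusted p under 0.05; DESeq2 called 4 entries and 0 members). At 24 h 0 of 5 passed, when 3.95% of all entries did. miR-200c-3p averaged 9.33 CPM at 12 h and 4.20 CPM at 3 h with PA, a log2 fold change of 1.14 ± 0.55 (95% interval -0.02 to 2.30; edgeR adjusted p = 0.492). At 24 h against 3 h it was 0.81 (-0.41 to 2.04). miR-200a-3p went the other way at 12 h, with -0.67 (-1.47 to 0.14), and stood at 0.07 (-0.73 to 0.87) at 24 h. miR-429 had 0.24 at 12 h and 0.73 at 24 h, and miR-200b-3p 0.0035 and -0.10.

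The other arm of each hairpin, the strand usually discarded, was close to absent. The hairpin of miR-200b shows the arrangement, with the 5p arm first and the 3p arm second, both in capitals:
MIR200B: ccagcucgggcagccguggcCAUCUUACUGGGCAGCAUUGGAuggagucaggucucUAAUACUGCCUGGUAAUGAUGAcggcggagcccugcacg
Over all libraries miR-200a-5p had 36 counts against 705 for miR-200a-3p, so the 5p arm took 4.86% of the hairpin's counts (exact 95% binomial interval 3.43% to 6.66%). The share was 3.09% (1.78% to 4.97%) for miR-200b, 1.33% (0.364% to 3.38%) for miR-141 and 0.922% (0.112% to 3.29%) for miR-200c. The 3p arm was therefore the main product of all 4 hairpins with both arms in the table. Summed over the 4 entries, the 5p arms had 2 to 10 counts in the 6 PA libraries, against 0 to 4 counts in the 6 DMSO libraries of 3, 12 and 24 h. Scaled to depth these were 1.68 to 4.18 CPM (median 2.55) with PA and 0 to 2.28 CPM (median 1.35) with DMSO. All 20 counts above 0 were even, so they may stand for fewer molecules, and none of the 4 entries passed the filter on low counts.

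Correlations between members were of mixed sign. Spearman correlations of log2 CPM between members over the 14 libraries ran from -0.49 (miR-200a-3p with miR-200c-3p) to 0.57 (miR-429 with miR-141-3p), with a median of 0.16 over 10 pairs. These values are a description, since all members share each library's depth and their counts are low. The entries most like each member were hsa-miR-4735-5p for miR-200a-3p (0.82), hsa-miR-491-3p for miR-200b-3p (0.77), hsa-miR-486-3p for miR-429 (0.76), the unnamed entry chr5_12386 for miR-200c-3p (0.77) and hsa-miR-556-5p for miR-141-3p (0.83). Next came hsa-miR-494-5p (0.81) and chr13_28163 (0.80) for miR-200a-3p, hsa-miR-483-3p (0.69) and hsa-miR-26b-3p (0.68) for miR-200b-3p, and chr19_36130 (0.73) and hsa-miR-193b-3p (0.71) for miR-429. For miR-200c-3p they were hsa-miR-1185-2-3p (0.71) and hsa-miR-148b-3p (0.63), and for miR-141-3p hsa-miR-624-5p and hsa-miR-374a-5p (0.81 each). No member of the family was among the 3 entries most like another. The named entries were picked as the highest of all entries tested, and 4 of the 15 stayed in the top 3 with Pearson correlation.

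Other miRNAs linked to EMT were read beside the family, in a list of 16 that oppose it and a list of 13 reported to promote it. The lists were chosen with earlier results of these data known, so their shares and medians are a description. Of 10 opposing miRNAs tested, 3 were higher with PA than with DMSO at 12 h and 0 were lower, when 11.1% of all entries passed in either direction. At 3 and 24 h 0 passed (0.247% and 6.67% of all entries). Their median log2 fold change was -0.02 at 3 h, 0.56 at 12 h and 0.09 at 24 h, beside -0.01, -0.06 and -0.01 over all entries. Of 11 promoting miRNAs tested, 0 passed at 3 h (0.247% of all entries), 3 were higher and 1 lower at 12 h (11.1%) and 1 was higher at 24 h (6.67%). The call at 24 h was thus near the share over all entries. Their medians were -0.09 at 3 h, 0.27 at 12 h and -0.03 at 24 h. The most abundant members, miR-30a-5p and miR-101-3p among the opposing and miR-21-5p and miR-27a-3p among the promoting, did not pass at 12 h, with the exception of miR-27a-3p. Their log2 fold changes at 12 h were -0.0056 for miR-30a-5p, 0.63 for miR-101-3p and -0.02 for miR-21-5p.

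**Figure D4:**
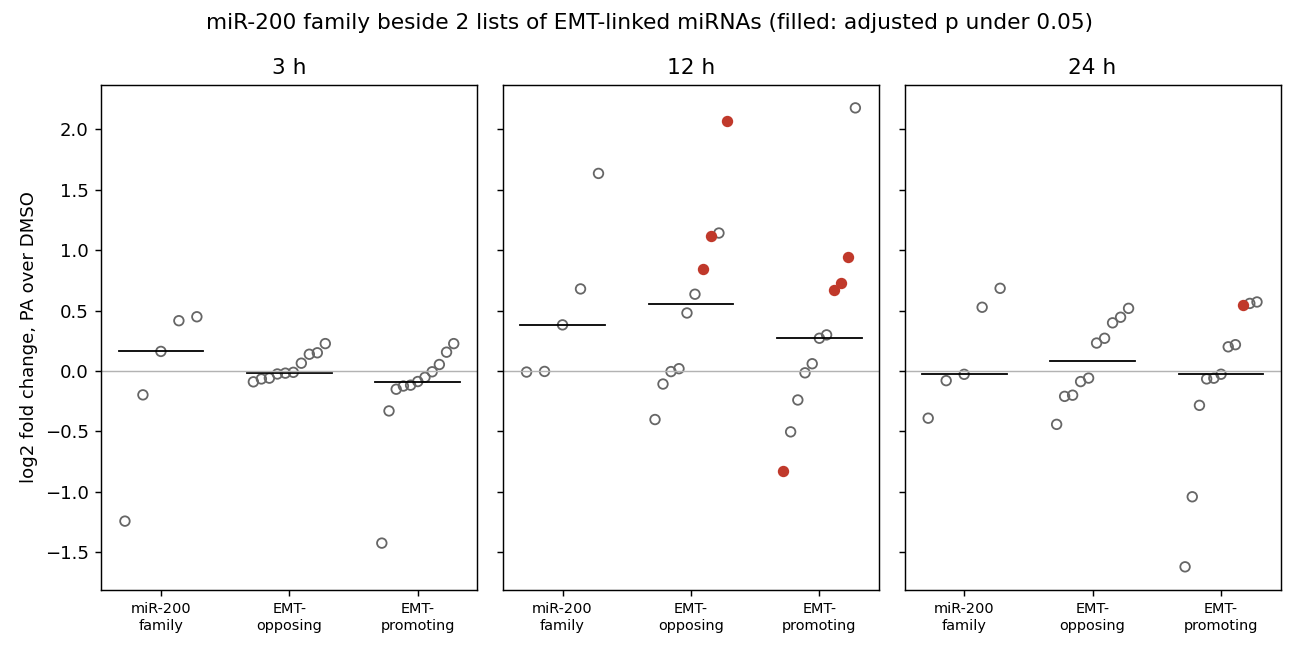
Log2 fold change of PA over DMSO at 3, 12 and 24 h for the 5 family members, 10 epithelial-linked or EMT-opposing miRNAs and 11 reported to promote EMT. Bars are medians and filled points have an adjusted p under 0.05. Filled points appear at 12 h in both lists and once at 24 h, and 0 of 5 family members are filled at any time.

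The opposing miRNAs that were higher with PA than with DMSO at 12 h were miR-34a-5p, a p53 target that represses SNAI1, miR-153-3p, which represses SNAI1 and ZEB2, and miR-138-5p, which represses ZEB2 and vimentin. miR-34a-5p averaged 154.5 ± 1.11 CPM with PA and 69.9 ± 28.2 with DMSO (SD, n = 2 each), a difference of 1.12 ± 0.25 on the log2 scale (edgeR adjusted p = 0.0108). miR-153-3p averaged 57.1 ± 4.77 CPM with PA and 12.5 ± 11.3 with DMSO (2.07 ± 0.41, adjusted p = 0.0044). miR-138-5p averaged 117 ± 8.30 CPM with PA and 65.5 ± 8.97 with DMSO (0.84 ± 0.24, adjusted p = 0.0379). In DMSO these miRNAs were lower at 12 h than at 0 h, with log2 fold changes of -0.95, -2.14 and -0.99, and all 3 passed. Both comparisons use the same 2 DMSO 12 h libraries, so the DMSO change is not independent of the PA calls. In the fit of DMSO at 12 h and 0 h alone, 0 of the 7 calls of listed miRNAs were kept. Within PA these 3 miRNAs stood at 0.10, -0.04 and -0.06 at 12 h against 3 h, and none passed. Set against DMSO at the other times, the PA changes at 12 h were 0.25, 0.11 and -0.11, and none passed. The fit of PA and DMSO at 12 h alone ended all 3 calls (adjusted p = 0.0927, 0.0597 and 0.154). The call of miR-138-5p was also lost with the letter as a replicate block (0.0514), with DESeq2 size factors (0.0533) and with halved counts (0.051). Leaving out DMSO 12 h B ended the call of miR-34a-5p (0.79, adjusted p = 0.084), miR-153-3p had 1.49 without DMSO 12 h B and 3.64 without DMSO 12 h A, and miR-138-5p passed in 6 of 14 fits that left out 1 library.

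The promoting miRNAs that were higher with PA than with DMSO at 12 h were miR-27a-3p, miR-107, a repressor of DICER1, and miR-9-5p, a repressor of E-cadherin. miR-27a-3p averaged 79459 ± 3030 CPM with PA and 41400 ± 5636 with DMSO (SD, n = 2 each), a difference of 0.94 ± 0.14 on the log2 scale (edgeR adjusted p = 0.000471). The change was 0.73 ± 0.16 for miR-107 (adjusted p = 0.0107) and 0.67 ± 0.17 for miR-9-5p (adjusted p = 0.0235). miR-221-3p, a repressor of the cell cycle inhibitor p27, was lower, at 10730 ± 1697 CPM with PA and 19074 ± 9342 with DMSO (-0.83 ± 0.25, adjusted p = 0.0468), but passed in only 1 of 14 fits that left out 1 library, with -1.25 without DMSO 12 h A and -0.21 without DMSO 12 h B. Within PA these miRNAs stood at 0.13, 0.23, 0.19 and -0.15 at 12 h against 3 h, and none passed. In DMSO at 12 h against 0 h they stood at -0.71, -0.49, -0.31 and 0.97, of which the first and last passed. That comparison shares the DMSO 12 h libraries with the PA calls and is not independent of them. Against the other DMSO times the PA changes were 0.19, 0.16, 0.30 and -0.14, and none passed. The fit of PA and DMSO at 12 h alone ended the calls of miR-107, miR-9-5p and miR-221-3p (adjusted p = 0.125, 0.137 and 0.199) and kept that of miR-27a-3p (0.0478). The call of miR-221-3p was also lost with the letter as a replicate block (0.0655) and with a minimum count of 5 (0.0688). miR-107 did not pass without PA 12 h A (adjusted p = 0.0795), nor miR-9-5p without DMSO 12 h B, PA 12 h A or PA 12 h B (0.0936, 0.101 and 0.0684). At 24 h miR-27a-3p averaged 99262 ± 8110 CPM with PA and 68015 ± 1530 with DMSO (0.55 ± 0.14, adjusted p = 0.0246). The call ended without DMSO 24 h A or B, DMSO 0 h B, DMSO 3 h B or PA 24 h A. It also ended with library totals (0.36, adjusted p = 0.0749), with no filter (0.063), with a minimum count of 5 (0.11) and in the fit of PA and DMSO at 24 h alone (0.0522). Against the other DMSO times it was 0.75 (adjusted p = 0.000512). It was also the only miRNA of both lists whose PA effect differed between the times (edgeR adjusted p = 0.0193). That was 1 of 11 promoting and 0 of 10 opposing miRNAs tested, when 5.93% of all entries passed. In DMSO at 12 h against 0 h miR-10a-5p (0.60) and, of the opposing list, miR-192-5p (0.54) were higher too. In all, 4 of 10 opposing and 3 of 11 promoting miRNAs tested passed there, when 12.7% of all entries did. Of the fits without 1 library, 14 of 14 kept the DMSO call of miR-153-3p, 13 that of miR-27a-3p, 12 each those of miR-34a-5p and miR-138-5p and 11 that of miR-221-3p, but only 3 each those of miR-10a-5p and miR-192-5p. The fit of DMSO at 12 h and 0 h alone kept none of these 7 calls, but it called far fewer of all entries than the fit of all libraries.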

How the data were processed

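Small RNA of PANC-1 cells was read in 14 libraries, 7 groups of 2. The authors deposited whole-number read counts per mature miRNA entry and a TPM table, which the values show to be counts scaled to a library total. The submitters' processing notes name GRCh38 with bcl2fastq, Bowtie and edgeR. Versions, roles, strand and the treatment of multiply mapping reads are not given in the sources used here. The labels do not say that A and B were separate cultures, so p-values measure the spread between these libraries, which may be technical.

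Testing used edgeR 4.0.16 under R 4.3.3 (TMM, robust quasi-likelihood F test). The filter was filterByExpr with min.count 10 and min.total.count 15, which left 810 entries. All 14 libraries entered 1 fit by group, with a common biological coefficient of variation of 0.203. The mean PA effect was fitted on 12 libraries with time as a factor, over 808 entries. Benjamini-Hochberg adjustment ran over all entries, with a threshold of 0.05, and standard errors come from the F statistic. A permutation test planned for members under the filter was not needed. The procedure was also run on simulated data, with the common dispersion for all entries and changes only in PA at 12 h. That run was summarized over all entries, so it does not show behaviour at the members' low counts in particular. Alternatives were library totals, DESeq2 size factors, DESeq2 1.42.0 itself, other filters, fits of the compared groups alone, no robust estimation, the letter as a replicate block, other DMSO times as the control, and leaving out each library. Halved counts, the mean effect without the 12 h libraries and crossed letters were added after seeing the data. The Poisson and binomial intervals and the floors cover counting error only, and PCR copies are no independent molecules. The edgeR intervals of fold changes also include the spread between libraries.

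The members and lists were chosen with earlier results of these data known. Named were all members and their other arms, the 3 entries most like each member by Spearman correlation, and, of each list, those that passed in a comparison (up to 4 with the smallest adjusted p in each) and the 2 most abundant.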

Additional observations from a re-analysis of the deposited data

How the results depend on the processing

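Counts of 0 to 88 per member limit every comparison. Over 232 alternative counts of members that passed, 230 were 0 and 2 were 1: without DMSO 12 h A, miR-141-3p passed for PA against DMSO at 12 h (a log2 fold change of 7.58 and, over the libraries left out, a range of 0 to 1 members) and for DMSO at 12 h against 0 h (-7.06, a range of 0 to 1), because the library left in DMSO at 12 h had 0 counts. For the members' log2 fold changes, 402 of 425 values under the other alternatives and 554 of 620 values without 1 library kept their direction and their side of the threshold.

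Set against DMSO at the other times, the PA change turned to 0.35 for miR-200b-3p at 3 h, 0.29 for miR-200c-3p at 12 h, 0.18 for miR-200b-3p and 1.05 for miR-141-3p at 24 h, and -0.11 for miR-138-5p at 12 h. With no filter it turned to 0.10 for both miR-200a-3p and miR-200c-3p at 12 h, and with a minimum count of 5 to 0.042 and 0.046. For miR-141-3p at 24 h it turned to 0.012 with DESeq2 size factors and 0.044 with halved counts. The mean PA effect on miR-200b-3p turned to -0.041 with library totals and -0.11 without the 12 h libraries. With time, miR-141-3p in DMSO at 3 h against 0 h turned to -0.13 with library totals and -0.0029 in the fit of these groups alone, and miR-429 at 12 h against 0 h to 0.017 with halved counts. For PA at 12 h against 3 h, miR-200b-3p turned to -0.014 with no filter, -0.0038 with a minimum count of 5 and -0.0092 with halved counts. For PA at 24 h against 3 h, miR-200a-3p turned to -0.0048 with library totals and -0.0043 with no filter. The cause was not tested.

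With the letter as a replicate block, 0 members passed in any comparison, and 2, 77 and 50 of all entries passed at 3, 12 and 24 h, against 2, 90 and 54. The replicate block turned miR-141-3p to 0.0021 at 24 h, to -0.0084 for DMSO at 3 h against 0 h and to -0.019 for PA at 12 h against 3 h. A minus B correlated between PA and DMSO at 0.04, -0.12 and -0.02 at 3, 12 and 24 h, so no shared shift by letter was seen. These values cannot show whether libraries of a letter were handled together. Crossing the letters of PA at 12 h gave 71 entries and 0 members. Of the calls named in the EMT lists, the block ended those of miR-138-5p and miR-221-3p at 12 h.

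Without 1 library, the PA change ranged from -0.011 to 0.40 for miR-200a-3p, -0.46 to 0.13 for miR-200b-3p, -0.058 to 1.08 for miR-141-3p and -0.84 to 1.04 for miR-429 at 3 h. At 12 h it ranged from -0.49 to 0.41 for miR-200a-3p and -0.25 to 0.31 for miR-200c-3p, and at 24 h from -0.13 to 0.032 for miR-200b-3p, -0.97 to 0.19 for miR-200c-3p and -0.37 to 0.23 for miR-141-3p. The mean effect on miR-200b-3p ranged from -0.023 to 0.17. In DMSO against 0 h the ranges were -0.46 to 0.29 for miR-200a-3p, -0.60 to 0.52 for miR-141-3p and -0.47 to 0.17 for miR-429 at 3 h, -0.51 to 0.31 for miR-429 at 12 h, and -1.09 to 0.041 for miR-200a-3p at 24 h. Within PA against 3 h they were -0.22 to 0.27 for miR-200b-3p, -1.44 to 0.69 for miR-141-3p and -0.38 to 1.53 for miR-429 at 12 h, and -0.34 to 0.17 for miR-200b-3p and -0.17 to 0.49 for miR-141-3p at 24 h. Wide ranges that kept their sign were -1.19 to -0.30 for miR-200a-3p within PA at 12 h, and 0.19 to 1.37 for miR-200c-3p and 0.11 to 1.99 for miR-429 at 24 h.

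Counts over all entries moved by more than 1.5 times as follows. In fits of the compared groups alone, PA called 1 entry at 3 h and 33 at 12 h, DMSO against 0 h called 17, 7 and 72 at 3, 12 and 24 h, and PA against 3 h called 20 at 12 h and 20 at 24 h. Against the other DMSO times, PA at 12 h called 5. The mean effect called 16 with no filter, 1 without robust estimation, 3 with halved counts and 13 with DESeq2. DMSO at 24 h against 0 h called 48 with no filter. PA at 12 h against 3 h called 8 with no filter, 2 with a minimum count of 5 and 4 with DESeq2. Leaving out 1 library gave 12 to 71 entries for PA at 24 h, 25 to 87 for the difference between times, 0 to 2 for the mean effect, 10 to 50 for DMSO at 24 h against 0 h, and 0 to 6 at 12 h and 1 to 49 at 24 h for PA against 3 h. The lowest such count was 34 for PA at 12 h and 40 for DMSO at 12 h against 0 h. With Pearson in place of Spearman correlation, 4 of the 15 entries most like a member stayed among the top 3. With the authors' TPM in place of CPM, 7 of 35 group means moved by more than 1 SD.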
